A study of Mus musculus with 11 samples.

Results

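The transcriptome described here is that of CRF1+ cells from the medial prefrontal cortex (mPFC) of ethanol-naïve mice. CRF1, encoded by Crhr1, is the type 1 receptor for corticotropin-releasing factor. The samples were those whose title ends in conCTRL and whose treatment is recorded as control, which gave 6 of the 11 libraries of the series, and the other 5 libraries, from ethanol-treated mice, were not used. Each library held cells of 1 adult male CRF1:GFP reporter mouse older than 10 weeks, in which GFP marks cells that use the Crhr1 promoter of the transgene. All 6 mice had received the alcohol dehydrogenase inhibitor pyrazole and breathed air in the vapor chambers, so that these are pyrazole-treated and not untreated animals. The mPFC was microdissected, dissociated with papain, cleared of debris on a density gradient, and sorted by fluorescence for live GFP+ cells, and 160 pg of RNA per mouse was made into full-length cDNA. The labels of these 6 libraries do not contradict each other. However, a second label of 3 ethanol libraries reads control and carries the animal numbers of naïve mice 4 to 6. The group sizes written in the deposited design are 5 naïve and 6 ethanol mice. Groups were taken from the treatment label and title. There was no sample of CRF1- cells or of whole mPFC among these 6, so the values describe the sorted cells and do not say what sets them apart from their neighbors.

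CRF1 is a receptor coupled mainly to the stimulatory G protein, and it carries the effects of the stress peptide CRF on neuronal excitability. In the cortex, pyramidal neurons release glutamate, which they load into vesicles through the transporter Slc17a7 (VGLUT1), while interneurons make GABA with the enzymes Gad1 and Gad2. How such a cell responds to its inputs depends on the subunits of its glutamate and GABA receptors, on its sodium, calcium, potassium and HCN channels, and on receptors for monoamines, acetylcholine and peptides. These gene families were described list by list, for 42 lists with 434 genes.

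Levels are given as CPM, in which the counts of a gene are scaled to the same total of counts on genes in every library. That total was 9970161 in the shallowest library and 17855514 in the deepest (median 16039548.5). The floor was 3 counts, or 0.168 to 0.301 CPM, and it covers counting error only. Values below it are printed and enter sums and ratios, but their size is not to be read as a level. Longer genes collect more reads, so the genes of a pair were compared per kilobase, as in RPKM, which is CPM per kilobase of merged exons. Rankings by CPM and sums of CPM over a list carry no correction for length. Coordinates are those of GRCm38 and are counted from 1. For Adora1, Ccn2, Kcnj3 and Miat, 20.1 to 32.1% of exon bases also lie in another gene, and reads there were not assigned, so their levels are uncertain. Of 53465 genes, 10992 (20.6%) reached 1 CPM in every mouse (12273 genes without mouse 5) and 31921 (59.7%) stayed below 1 CPM in every mouse. Of 21942 protein-coding genes, 10339 (47.1%) reached 1 CPM in every mouse. This 47.1% is the share to set beside the count of any list of protein-coding genes below. Mouse 5 stood apart from the others. Its library had counts on 15585 genes against 22981 to 30626 in the other 5. Reads that fell on no counted feature of a gene were 5.77% of its tallied reads, against 17.9 to 31.5%. Its correlation of log2(CPM + 1) across all genes with the other mice was 0.934 to 0.952, against 0.954 to 0.977 among those. For some counts and ratios that turned on mouse 5, the value without it is given as well. In bulk libraries, fewer cells of a type and less RNA per cell cannot be told apart.

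The markers of the sort were first examined. Crhr1 (chr11:104132855-104175523, plus strand, ENSMUSG00000018634) was measured at 67.1, 70.5, 118, 99.8, 105 and 79.8 CPM in mice 1 to 6, or 90.1 ± 20.7 CPM (SD, n = 6), and the values of all mice lay within a narrow range, with mice 1 and 2 lowest and mouse 3 highest. Slc17a7 (chr7:45163949-45176142, plus strand, ENSMUSG00000070570) was measured at 1219, 1382, 1627, 1854, 843 and 1474 CPM, and Gad2 (chr2:22622205-22693874, plus strand, ENSMUSG00000026787) at 47.7, 49.8, 62.2, 13.2, 11.2 and 50.7 CPM. Slc17a7 was far above Gad2 in every mouse. The log2 ratio of Slc17a7 over Gad2 per kilobase ranged from 4.80 to 7.26, with a mean of 5.53 ± 1.04. Here and below, a ratio of 2 genes was tested with a two-sided exact permutation test over the 64 ways of swapping the genes within mice, adjusted by the Benjamini-Hochberg method over 30 pairs, and ratios are given as the mean ± SD over the 6 mice. With 6 mice the smallest p that this exact test can give is 0.0313, reached when all mice share a direction, and every ratio given here had this p and an adjusted p of 0.0361 unless another is printed. Such a p says that the direction was shared, not how large the difference was. The pairs were chosen with earlier results of these data known, so a p given here is no independent evidence. Gad2 was nonetheless above 1 CPM in every mouse, with its lowest values in mice 4 and 5.

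Among the 7 genes of the CRF system, Crhr1 was the only one that reached 1 CPM in every mouse. Crhr2, the type 2 receptor, was measured at 1.81, 0.672, 0, 0.28, 0.0637 and 6.84 CPM, and 5 of these 6 values were below 2 CPM. Crhr1 was above Crhr2 per kilobase in every mouse, with a log2 ratio from 4.59 to 12.36 (mean log2 ratio 8.58 ± 2.96), although the size of this ratio depends on the 0.5 added to each count because mouse 3 had no Crhr2 count, and its mean was 7.74 with 3 added to each count, 7.82 without mouse 3 and 9.37 without mouse 6. Crh, which encodes the CRF peptide itself, was at 1.6, 20.4, 5.32, 3.87, 32.9 and 0.488 CPM, so it was highest in mice 2 and 5 and below 1 CPM in mouse 6, and without mouse 6 the genes of the CRF system at 1 CPM in every mouse were 2. Crhbp, the secreted protein that binds and sequesters CRF, was at 30.3, 28.95, 2.05, 0.168, 0 and 14.95 CPM, with mice 1, 2 and 6 high and mice 4 and 5 at or near 0, and Crhr1 was above it per kilobase in every mouse by a log2 ratio from 0.70 to 11.24 (mean log2 ratio 4.77 ± 4.39). Leaving out 1 mouse at a time moved this mean from 3.48, without mouse 5, to 5.59, without mouse 1. With 3 added to each count the mean was 4.18, so its size depends on the number added. The cells were sorted by a reporter of Crhr1, so the lead of Crhr1 in this list and in both ratios was favored by the sort. The alternative ligands Ucn, Ucn2 and Ucn3 were below 1 CPM in every mouse. Both corticosteroid receptors were present. The glucocorticoid receptor Nr3c1 was at 62.6 to 126 CPM (median 105) and the mineralocorticoid receptor Nr3c2 at 7.77 to 21.2 CPM (median 10.5), and the log2 ratio of Nr3c1 over Nr3c2 per kilobase was from 2.29 to 3.32 (mean log2 ratio 2.79 ± 0.44).

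The genes with the most reads included ribosomal RNA rows, described in the next paragraph, long noncoding RNAs and protein-coding genes of neurons. Calm2, which encodes the calcium sensor calmodulin, was at 2839 to 5873 CPM (median 3199.9). Snap25, a SNARE protein of vesicle fusion, was at 4659 to 7359 CPM (median 5099), the glycolytic enzyme Aldoa at 3562 to 6114 CPM (median 3928), and Zwint, known as a kinetochore protein, at 2635 to 3987 CPM (median 3006). Further protein-coding genes among the 20 with the highest mean CPM were Rtn1, Ndrg4, Hsp90ab1, Syt1, Mdh1, Hspa8, Aplp1, Nsf and Atp5b, of which Syt1 encodes the calcium sensor of release, Nsf the ATPase that takes SNARE complexes apart, and Mdh1 and Atp5b enzymes of energy metabolism. The long noncoding RNAs Snhg11 and Meg3 were also among them, at 2116 to 3679 CPM (median 3381) and 1297 to 2726 CPM (median 2325). Per kilobase, the 10 highest genes included the protein-coding Calm2, Aldoa, Stmn3, Cck, Tmsb4x and the mitochondrial gene mt-Cytb, with Calm2 at 1935 to 4003 RPKM (median 2181) and Cck at 882 to 2185 RPKM (median 1147). Reads of genes such as Calm2 and Aldoa, which have near-identical copies or pseudogenes, can be left out of the count where they map to several places, so their levels are uncertain. General neuronal markers (Snap25, Syt1, Rbfox3, Map2, Tubb3, Nefl, Eno2, Stmn2) all reached 1 CPM in every mouse, and their summed level was 10063 to 12248 CPM (median 10757).

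Several rows in the same top list hold ribosomal RNA sequence or sequence like it, and these differed widely between the libraries. CT010467.1, annotated as a ribosomal RNA, was measured at 20418, 4792, 9193, 7361, 198 and 9820.5 CPM. Gm23935, a gene of 57 exon bases, was at 5456, 1340.3, 2853, 3023, 24.2 and 3269.8 CPM, and Lars2, whose gene is known to collect ribosomal reads, was at 4702, 1613, 2866, 3491, 161 and 3810.4 CPM. In each of these 3 rows mouse 1 was the highest and mouse 5 the lowest. With Mir6236, Gm15564 and Gm26917 added, the 6 rows took 0.0605% of counts in mouse 5 and 0.965 to 3.43% in the other mice, and these counts stayed in the library totals.

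Glutamatergic markers were abundant in all mice. Of the glutamatergic markers 8 of 9 reached 1 CPM in every mouse, against 47.1% of protein-coding genes, and their summed level was 1724 to 3099 CPM (median 2532). Neurod6, a transcription factor of cortical projection neurons, was at 266 to 517 CPM (median 296), Camk2a, the calcium/calmodulin kinase subunit of excitatory neurons, at 199 to 641 CPM (median 512), and the transcription factor Neurod2 at 66.5 to 102 CPM (median 95.9). The exception among these 9 markers was Slc17a8 (VGLUT3). Slc17a6 (VGLUT2), the transporter used mainly by thalamic and other subcortical neurons, was at 1.66 to 22.6 CPM (median 10.2), and Slc17a7 was above it in every mouse with a log2 ratio per kilobase from 6.17 to 9.15 (mean log2 ratio 7.47 ± 1.29).

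GABAergic markers were present in every library, but which ones differed between mice. Of 18 markers, 9 reached 1 CPM in every mouse and the other 9 in some, and the summed level was 1193, 957, 623, 318, 317 and 836 CPM in mice 1 to 6, so mice 4 and 5 were lowest. Sst, which encodes somatostatin, was at 653, 482, 23.3, 0.168, 0.0637 and 285 CPM. It was therefore among the genes with many reads in mice 1, 2 and 6, low in mouse 3, and at or below the floor of 3 counts in mice 4 and 5. Npy, encoding neuropeptide Y, was at 172, 207, 2.05, 0, 4.65 and 116 CPM, with the same mice high. Vip, made by another class of interneuron, was instead within 17.7 to 83.6 CPM (median 36.4), Calb2 (calretinin) within 9.58 to 72.7 CPM (median 45.7), and Lamp5, which pyramidal neurons of the upper layers also express, within 78.5 to 194 CPM (median 128). Gad1 was at 32.04 to 149 CPM (median 73.7) and was above Gad2 per kilobase in every mouse (mean log2 ratio 0.81 ± 0.50). A pair of genes was chosen after their values were seen. The interneuron transcription factor Lhx6 was at 2.21, 13.7, 0.84, 0.336, 0 and 5.92 CPM, and Cort, the precursor of cortistatin, at 7.72, 20.6, 0.747, 0.448, 0 and 0.854 CPM, both highest in mouse 2 and at 0 in mouse 5. Pvalb (parvalbumin), chosen in the same way, marks the fast-spiking interneurons and did not exceed 2.56 CPM in any mouse. The ratio of the summed glutamatergic to the summed GABAergic markers in CPM ranged from 1.89 in mouse 1 to 9.76 in mouse 4. It carries no correction for gene length, and its GABAergic sum includes Lamp5.

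**Figure D1:**
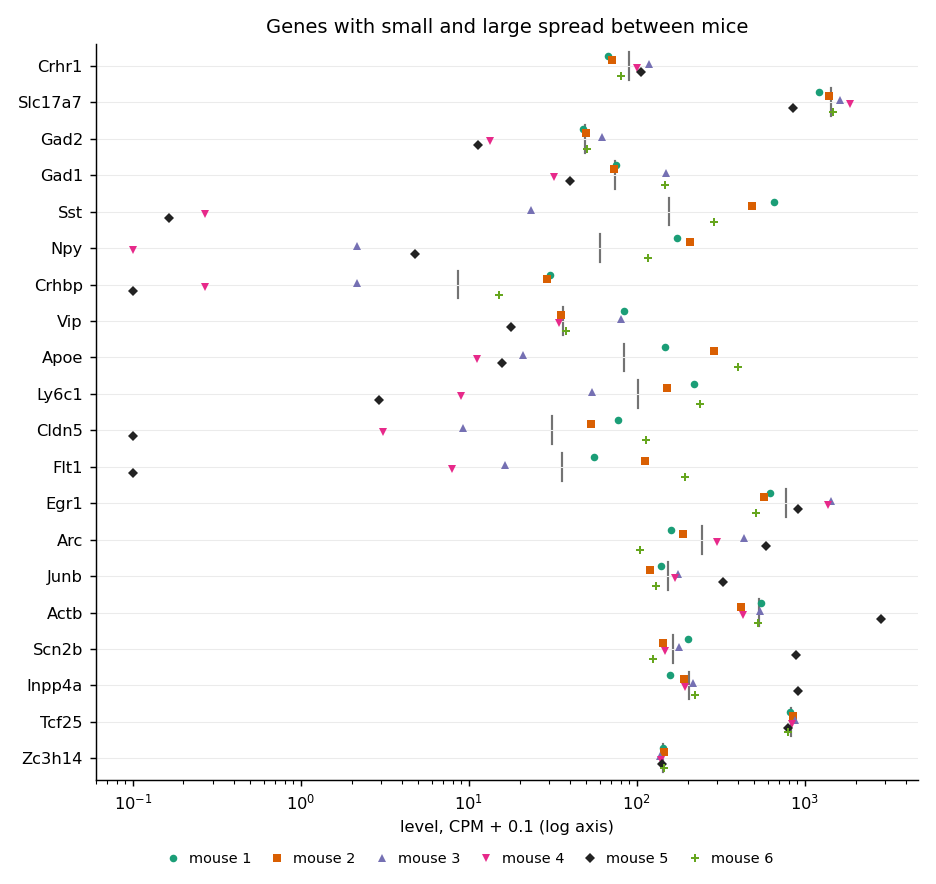
Level of 20 genes in each of the 6 naïve mice, as CPM + 0.1 on a log axis, with 1 symbol per mouse and a vertical tick at the median. Crhr1 and Slc17a7 lie close together in all mice, Sst, Npy, Crhbp, Apoe, Ly6c1, Cldn5 and Flt1 are spread over orders of magnitude with mice 1, 2 and 6 highest, and Actb, Scn2b and Inpp4a are high in mouse 5.

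Markers of upper cortical layers were present in all libraries beside those of deeper layers. All 8 upper layer markers reached 1 CPM in every mouse, with a summed level of 488 to 729 CPM (median 592). Calb1 (calbindin) was at 60.3 to 241 CPM (median 177), the homeobox gene Cux2, a standard marker of layers 2 to 4, at 54.96 to 116 CPM (median 77.2), and Rasgrf2 at 13.6 to 100.3 CPM (median 81.7). Of the layer 5 markers 7 of 8 reached 1 CPM in every mouse, with Fezf2, which specifies subcortical projection neurons, at 33.6 to 101 CPM (median 63.8), and Rbp4, Parm1 and Deptor at medians of 21.9, 52 and 77.6 CPM. Bcl11b (CTIP2), another transcription factor of these neurons, was at 38.6, 79.1, 49.1, 17.2, 41.5 and 114 CPM, and neither it nor Cux2 was consistently higher, with a log2 ratio of Cux2 over Bcl11b per kilobase from -1.04 to 2.43 (mean log2 ratio 0.44 ± 1.2, exact permutation p = 0.469, adjusted p = 0.485). Layer 6 markers were lower and less even, with 3 of 8 at 1 CPM in every mouse (6 without mouse 5) and a summed level of 50.7 to 203 CPM (median 94.03). Foxp2 was at 6.42, 18.9, 4.67, 5.88, 0 and 29.1 CPM, absent from mouse 5 and highest in mouse 6, and Cux2 was above it per kilobase in every mouse (mean log2 ratio 5.10 ± 3.64, or a mean of 3.71 without mouse 5 and 5.73 without mouse 6). With 3 added to each count the mean log2 ratio of Cux2 over Foxp2 was 4.64, so its size depends on the number added. The layer 6 list was led per kilobase by Nr4a2, Tle4, Ccn2 and Ntsr1, and Ccn2, a marker of layer 6b, was at 5.72, 26.3, 3.74, 0.616, 0.0637 and 36.6 CPM, with mice 2 and 6 high. Since a dissection of mPFC can reach into striatum, 5 striatal markers were also examined, of which Drd1 was at 9.41 to 32.2 CPM (median 20.4) and Rgs9 at 0.319 to 45.96 CPM (median 11.1), while Drd2 and Adora2a, which define the striatopallidal neurons, did not exceed 1.62 and 2.13 CPM.

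Markers of vessels varied widely between the libraries. The summed level of 7 endothelial markers was 484, 491, 102, 30.3, 2.99 and 758 CPM in mice 1 to 6. Ly6c1 was at 219, 149.8, 53.9, 8.91, 2.8 and 236 CPM, the tight junction protein gene Cldn5 at 77.03, 53.2, 9.06, 2.97, 0 and 114 CPM, the VEGF receptor Flt1 at 55.2, 111, 16.3, 7.79, 0 and 192 CPM, and the transporter Slco1a4 at 92.2, 113, 1.49, 0.84, 0 and 138 CPM. Mice 1, 2 and 6 were high for each of them, mice 3 and 4 low, and mouse 5 at 0 for Cldn5, Flt1 and Slco1a4. Without mouse 5, the number of endothelial markers at 1 CPM in every mouse rose from 1 to 5. The 8 mural cell markers summed to 34.8, 92.97, 26.5, 8.91, 0.191 and 165 CPM, with Rgs5 at 30.99, 32.1, 1.31, 4.65, 0.0637 and 53.4 CPM and Vtn at 0.201, 31.3, 0, 0.448, 0 and 64.1 CPM. Apoe, made mainly by astrocytes and microglia and not a member of a list, was among the genes with the largest spread, at 147, 288, 21.01, 11.1, 15.5 and 401 CPM. Mice 1, 2 and 6 were thus those with the highest Sst, Npy, Crhbp, endothelial markers and Apoe alike, and the part of vessel or glial cells in the other differences between mice was not tested. Fibroblast markers behaved differently, summing to 4.21, 19.3, 72.8, 48.6, 0.0637 and 17.1 CPM with mice 3 and 4 highest, and Col1a2 was at 0.301, 3.47, 38.3, 22.7, 0 and 1.4 CPM.

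Astrocyte and oligodendrocyte markers were led in summed level by Aldoc, Slc1a2 and Mbp. Whether reads of these genes came from glial cells or from neurons was not tested. Astrocyte markers summed to 301 to 558 CPM (median 439), of which Aldoc at 50.7 to 131 CPM (median 113) and the glutamate transporter Slc1a2 at 131 to 311 CPM (median 228) made up most, and 4 of the 10 reached 1 CPM in every mouse (7 without mouse 5). Without these 2 genes the other 8 summed to 38.3 to 194 CPM, and the defining astrocyte genes Gfap and Aqp4, named after their values were seen, were at 5.22, 26.6, 0.0934, 0, 0 and 41.1 CPM and 1.5, 6.5, 0.934, 0.392, 0 and 10.5 CPM, both highest in mice 2 and 6. Oligodendrocyte markers summed to 126 to 261 CPM (median 181), mainly from Mbp at 95.7 to 173 CPM (median 127), and without Mbp to 29.99 to 88.1 CPM. Opalin, a myelin marker, was below 1 CPM in every mouse. Precursor markers summed to 9.33, 7.84, 17.9, 7.73, 0 and 19.9 CPM, and Olig2 was below 1 CPM throughout. None of these 6 reached 1 CPM in every mouse, and 2 did without mouse 5. Microglia markers summed to 14.3 to 26.2 CPM (median 19.7), with P2ry12 and C1qa below 1 CPM in every mouse. Globin and other erythroid genes summed to 2.21, 22.4, 0, 2.8, 0 and 48.8 CPM, and the near-identical pair Hba-a1 and Hba-a2 cannot be told apart with certainty by short reads. Of the ependymal and choroid markers, Foxj1, Folr1 and Ccdc153 were below 1 CPM in every mouse and Ttr reached 1.77 CPM at most.

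**Figure D2:**
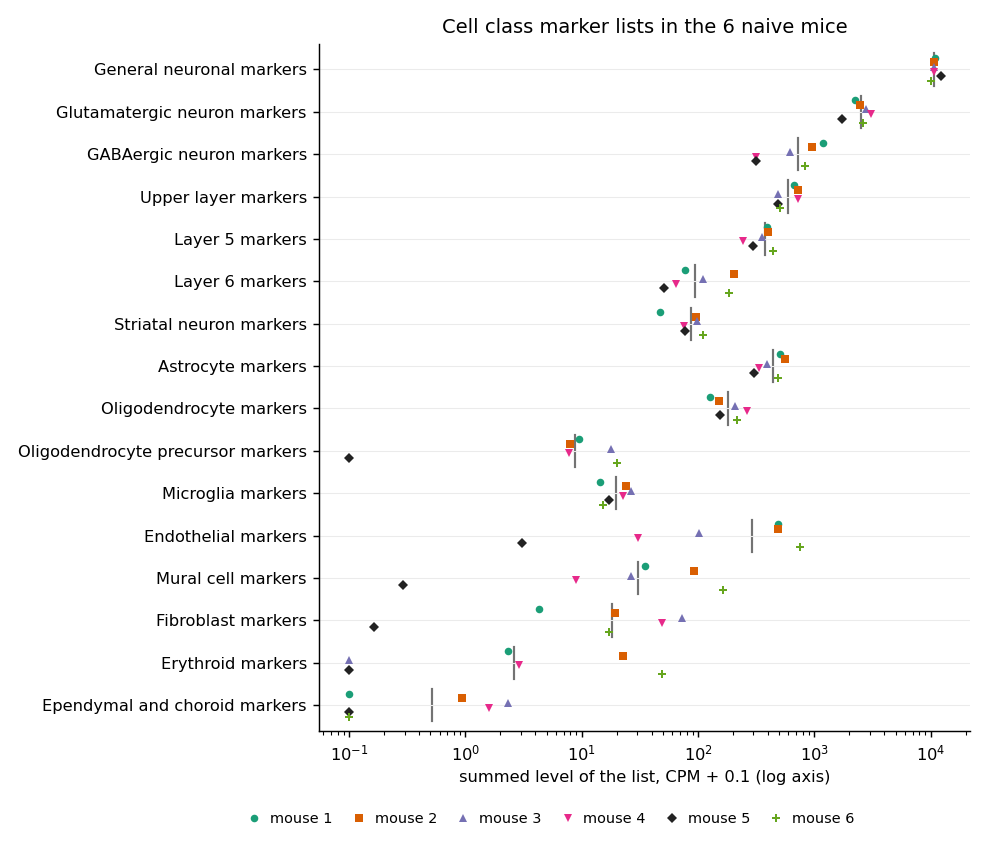
Summed level of 16 marker lists in each of the 6 naïve mice, as CPM + 0.1 on a log axis, with 1 symbol per mouse and a vertical tick at the median. General neuronal, glutamatergic, upper layer, layer 5 and oligodendrocyte lists lie close together, whereas endothelial markers run from 2.99 CPM in mouse 5 to 758 CPM in mouse 6 and fibroblast markers are highest in mouse 3.

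Receptors for fast glutamate transmission were examined next. AMPA receptors are tetramers of GluA subunits, and the subunit encoded by Gria2 keeps most of them impermeable to calcium. All 4 subunit genes reached 1 CPM in every mouse. Per kilobase, Gria2 was at 51.4 to 62.5 RPKM (median 55.2) and Gria1 at 24.1 to 68.0 RPKM (median 52.8), which did not differ consistently between mice (mean log2 ratio 0.26 ± 0.47, exact permutation p = 0.312, adjusted p = 0.335). This result turned on the length used, because the merged exons of Gria2 span 15548 bases, and with the longest transcript as its length Gria2 was above Gria1 with a mean log2 ratio of 0.72 and an adjusted p of 0.0375 by the same exact permutation test. Gria3 at 15.6 to 30.03 RPKM (median 25.95) was below Gria2 in every mouse (mean log2 ratio 1.19 ± 0.27), and Gria4 was at 9.37 to 21.4 RPKM (median 20.5). Auxiliary proteins, which steer AMPA receptor trafficking and gating, were led by Cnih2 at 129 to 163 RPKM (median 134), Cacng3 at 70.5 to 139 RPKM (median 105) and Cnih3 at 74.7 to 126 RPKM (median 89.1). Of the 12 auxiliary genes, 7 reached 1 CPM in every mouse (9 without mouse 5) and Cacng7 in none.

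NMDA receptors contain the obligatory subunit encoded by Grin1 together with Grin2 subunits that set their kinetics. Grin1 was at 9.37 to 32.2 RPKM (median 27.4), Grin2b at 4.15 to 15.2 RPKM (median 14.3), Grin2a at 7.18 to 11.97 RPKM (median 8.44) and Grin3a at 1.1 to 6.89 RPKM (median 3.83). Grin2b was above Grin2a in mice 1 to 4 and 6 and below it in mouse 5, with log2 ratios from -0.79 to 0.84 (mean log2 ratio 0.39 ± 0.61, exact permutation p = 0.156, adjusted p = 0.174). Without mouse 5 the mean log2 ratio was 0.63, a value with no test, since 5 mice cannot reach 0.05. Grin3b stayed below 1 CPM in every mouse. Among kainate and delta receptor genes, 6 of 7 reached 1 CPM in every mouse, and Grik5 led with 44.9 to 64.7% (median 56.98%) of the summed level per kilobase. Metabotropic glutamate receptors signal through G proteins, Grm5 through Gq and Grm2, Grm3 and Grm7 through Gi. Grm3 was at 8.82 to 55.5 RPKM (median 32.9), Grm2 at 19.9 to 50.03 RPKM (median 30.6), Grm7 at 14.9 to 21.7 RPKM (median 17.8) and Grm5 at 5.76 to 24.7 RPKM (median 16.7). Grm5 was below Grm3 per kilobase in every mouse (mean log2 ratio -1.01 ± 0.59), but with the longest transcript as length the adjusted exact permutation p was 0.108, and in CPM, with no length correction, Grm5 was the higher.

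GABA-A receptors are pentamers, commonly of 2 alpha, 2 beta and 1 gamma or delta subunit. Of the 19 subunit genes, 11 (57.9%) reached 1 CPM in every mouse, against 47.1% of protein-coding genes, and Gabra6, Gabre and Gabrr1 in none. Gabra5, whose product is found mainly in extrasynaptic receptors, was at 29.6 to 38.4 RPKM (median 34.5). The GABA-B receptor is a pair of the products of Gabbr1, at 20.99 to 48.1 RPKM (median 39.6), and Gabbr2, at 19.7 to 63.1 RPKM (median 25.3), with Gabbr2 highest in mouse 5. Glrb, the beta subunit of glycine receptors that also binds gephyrin, was at 38.96 to 59.4 RPKM (median 44.03), whereas the alpha subunit Glra2 was at 0.605 to 6.24 RPKM (median 2.8) and Glra4 was below 1 CPM throughout.

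Postsynaptic scaffolds hold these receptors in place. Of 12 genes, 11 reached 1 CPM in every mouse, led per kilobase by Dlg3 (SAP102) at 5.47 to 31.8 RPKM (median 24.9), Shank1 at 10.2 to 29.2 RPKM (median 20.3), the inhibitory scaffold gephyrin (Gphn) at 11.1 to 24.2 RPKM (median 19.0) and Dlg1 (SAP97) at 9.91 to 21.7 RPKM (median 17.2). Dlg4 encodes PSD-95, the best known of these proteins, and was measured at 17.7, 13.5, 16.3, 14.1, 2.42 and 14.6 CPM in mice 1 to 6, or 0.183 to 1.33 RPKM (median 1.08). It was below Dlg2 (PSD-93) per kilobase in every mouse (mean log2 ratio -2.88 ± 0.48). The summed level of the scaffolds was 1057, 1106, 1266, 1238, 619 and 1104 CPM, lowest in mouse 5.

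**Figure D3:**
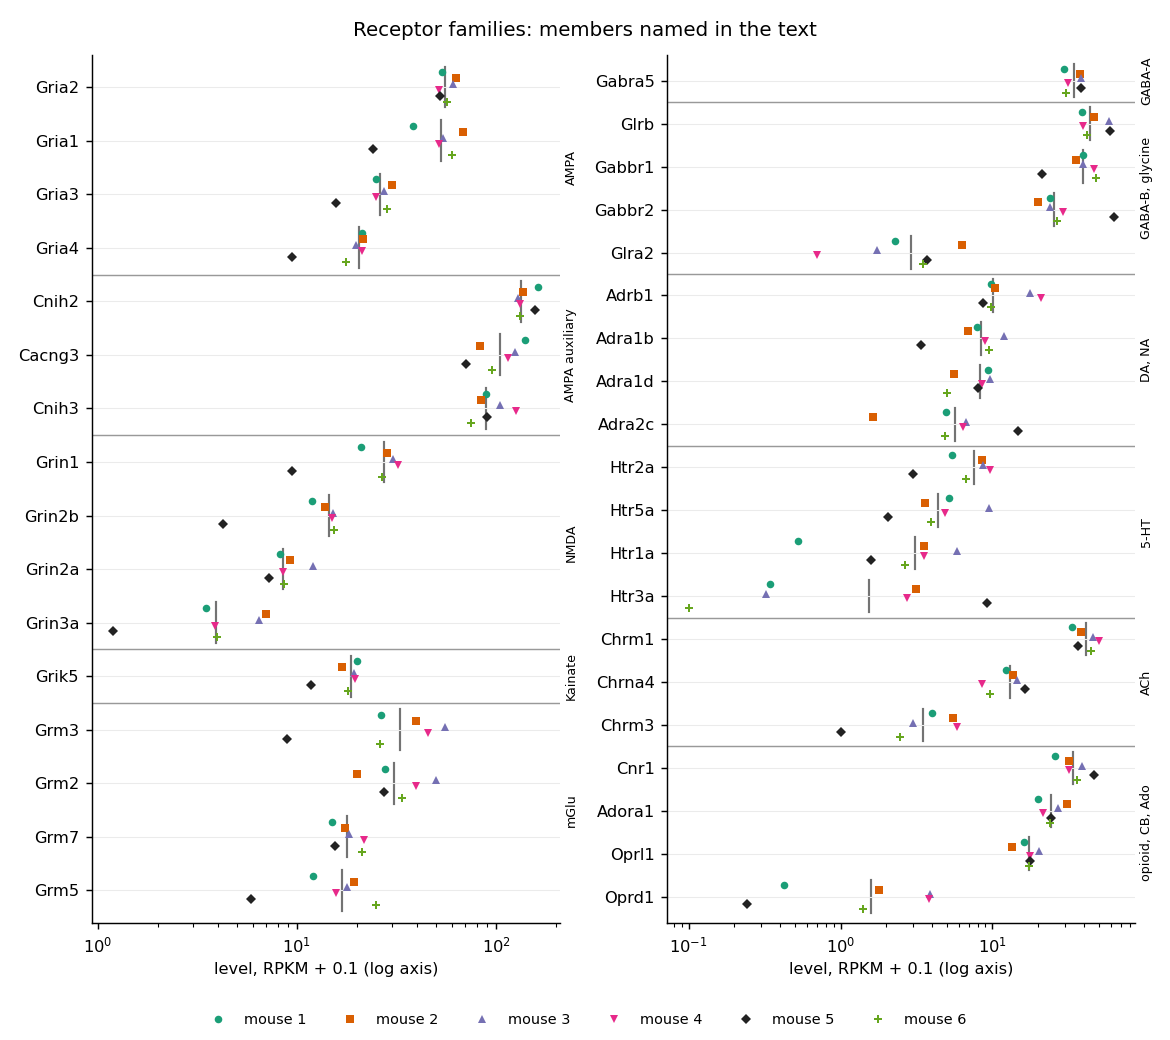
Level of receptor genes leading their lists per kilobase and named in the text, in each of the 6 naïve mice, as RPKM + 0.1 on a log axis, with 1 symbol per mouse and a vertical tick at the median. The left panel holds glutamate receptors and the right panel GABA, glycine, monoamine, acetylcholine, opioid, cannabinoid and adenosine receptors, and mouse 5 (black diamonds) is the lowest for Gria1, Gria3, Gria4, Grin1 and Grin2b.

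Sodium channels start the action potential. Of the 14 genes, 8 (57.1%) reached 1 CPM in every mouse (10 without mouse 5), against 47.1% of protein-coding genes. Scn4a and Scn11a, known from muscle and sensory neurons, stayed below 1 CPM throughout. The beta subunits Scn2b and Scn3b were at 26.7 to 189 RPKM (median 34.9) and 25.97 to 44.5 RPKM (median 31.1). In CPM, Scn2b was at 201, 143, 179, 147, 879 and 125 CPM, and mouse 5 was the high one. Of the pore-forming subunits, Scn2a was at 10.2 to 26.9 RPKM (median 24.6) and was above Scn8a (mean log2 ratio 0.49 ± 0.31) and Scn1a (mean log2 ratio 2.20 ± 0.38), and the first of these ratios no longer passed in CPM, with a mean log2 ratio of 0.18 and an adjusted exact permutation p of 0.259. Scn1a is the main sodium channel of parvalbumin interneurons, while Scn2a and Scn8a are those of pyramidal axons.

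Voltage-gated calcium channels link depolarization to calcium entry. Of the 10 alpha1 genes, 8 reached 1 CPM in every mouse, with Cacna1e (R type) at 4.36 to 7.76 RPKM (median 6.95), Cacna1g (T type) at 4.1 to 7.47 RPKM (median 6.57), Cacna1b (N type) at 1.69 to 7.49 RPKM (median 5.17) and Cacna1a (P/Q type) at 2.92 to 4.31 RPKM (median 3.27). Cacna1e was above Cacna1a in every mouse (mean log2 ratio 0.92 ± 0.39). The L type genes Cacna1c and Cacna1d did not differ consistently (mean log2 ratio -0.14 ± 0.57, exact permutation p = 0.531, adjusted p = 0.531), and the sign of their mean ratio turned without mouse 2 (0.035), with the longest transcript as length (0.16) and without a length correction (0.61). HCN channels carry the hyperpolarization-activated current that gives voltage sag. Hcn3 was at 6.85 to 15.3 RPKM (median 8.52), Hcn2 at 4.13 to 8.63 RPKM (median 6.78) and Hcn4 at 0.281 to 1.99 RPKM (median 0.859).

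Potassium channels repolarize the cell and set its rest. Of the 22 voltage-gated genes, 18 reached 1 CPM in every mouse and Kcna10 in none. Kcnc4 was at 6.05 to 26.2 RPKM (median 20.7), and Kcna3 at 7.04 to 23.4 RPKM (median 13.7). The A type genes Kcnd2 and Kcnd3 were in the order Kcnd2 over Kcnd3 per kilobase (mean log2 ratio 0.69 ± 0.55), a result that was lost with the longest transcript as length (mean log2 ratio 0.27, adjusted exact permutation p = 0.335) and turned in CPM to a mean log2 ratio of -0.21 (adjusted exact permutation p = 0.344). Kcnma1, the calcium-activated BK channel, was at 7.21 to 15.3 RPKM (median 13.97) and made up 31.3 to 60.7% (median 43.1%) of its list per kilobase. Among inward rectifiers, Kcnj9 (GIRK3) was at 27.8 to 57.5 RPKM (median 47.2), Kcnj4 at 7.58 to 27.4 RPKM (median 20.3) and Kcnj3 (GIRK1) at 9.01 to 15.6 RPKM (median 14.4), while Kcnj5 and Kcnj13 were below 1 CPM in every mouse. Kcnj8, which is also a mural cell marker, was at 0.201, 2.13, 0.0934, 0.56, 0 and 24.96 CPM. Kcnk1 (TWIK1) led the 2-pore channels with 21.1 to 55.8 RPKM (median 33.8), and Kcnk15, Kcnk16 and Kcnk18 were below 1 CPM throughout.

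**Figure D4:**
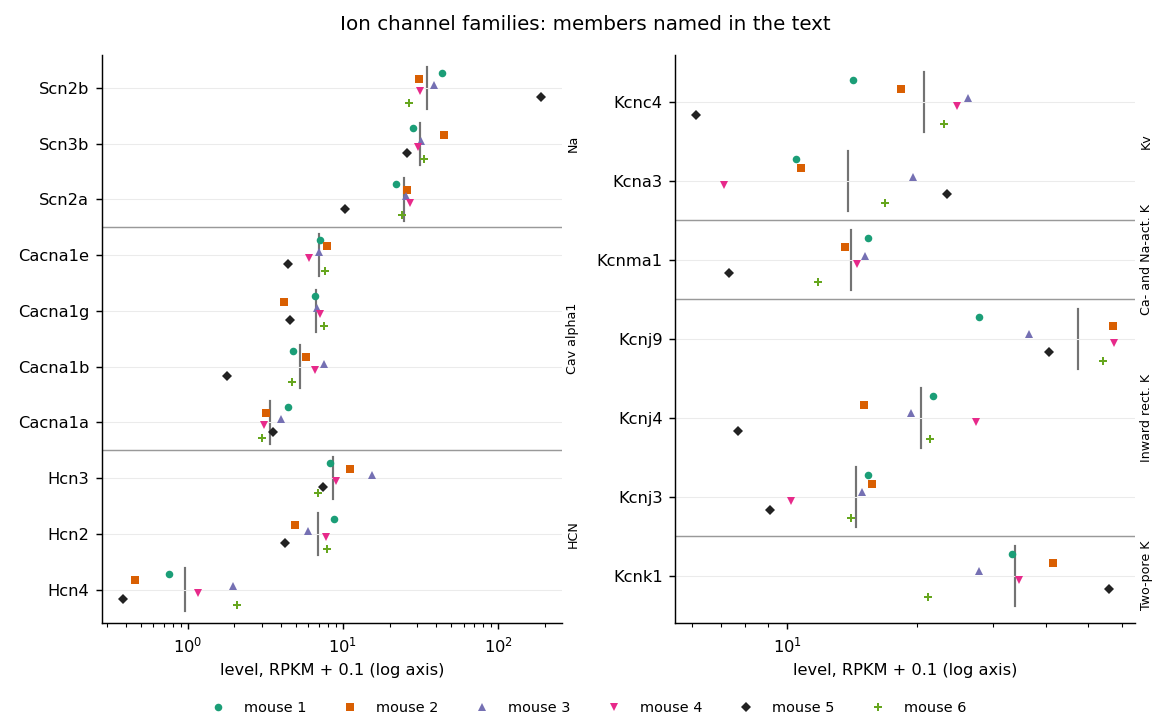
Level of ion channel genes leading their lists per kilobase and named in the text, in each of the 6 naïve mice, as RPKM + 0.1 on a log axis, with 1 symbol per mouse and a vertical tick at the median. Scn2b is far higher in mouse 5 than in the other mice.

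Receptors for monoamines and acetylcholine were next. Of 14 dopamine and noradrenaline receptors, 7 reached 1 CPM in every mouse and Drd3 in none. The beta1 adrenoceptor Adrb1 was at 8.55 to 20.9 RPKM (median 10.02), the alpha1 adrenoceptors Adra1b and Adra1d at 3.3 to 11.8 RPKM (median 8.34) and 4.88 to 9.49 RPKM (median 8.22), and Adra2c at 1.54 to 14.6 RPKM (median 5.56). Adra2a, the receptor through which guanfacine acts, was at 2.46 to 6.77 CPM (median 4.14) and was below Adra1b per kilobase in every mouse (mean log2 ratio -3.10 ± 0.61). Drd1, the Gs-coupled dopamine receptor, was at 12.04, 28.2, 23.6, 9.41, 17.3 and 32.2 CPM and Drd2, its Gi-coupled counterpart, at 0, 0.896, 0.0934, 1.62, 0 and 1.16 CPM, and Drd1 was the higher in every mouse (mean log2 ratio 5.59 ± 2.45). With no Drd2 count in mice 1 and 5, the size of that ratio depends on the number added to each count, and its mean was 4.43 with 3 added, 4.99 without mouse 5 and 6.31 without mouse 4. Of the serotonin receptors 6 of 14 (42.9%) reached 1 CPM in every mouse (8 without mouse 5) and Htr2b and Htr3b in none. Htr2a was at 16.2 to 53.4 CPM (median 41.9), above both Htr2c (mean log2 ratio 2.23 ± 0.97) and Htr1a (mean log2 ratio 1.54 ± 1.06) per kilobase. Htr5a followed at 10.5 to 50.7 CPM (median 23.1). The channel-forming Htr3a, expressed by a class of interneuron, was at 0.501, 6.33, 0.467, 5.49, 19.1 and 0 CPM, highest in mouse 5. Chrm1, the M1 muscarinic receptor, made up 52.1 to 61.2% (median 55.6%) of the acetylcholine receptor list per kilobase, at 214 to 325 CPM (median 269). It was above Chrm3 in every mouse (mean log2 ratio 3.76 ± 0.94), and Chrna4, the leading nicotinic subunit, was at 42.7 to 81.6 CPM (median 64.9). Chrna6, Chrna9, Chrna10 and Chrnb4 were below 1 CPM in every mouse.

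Receptors for endocannabinoids, adenosine and opioids were examined in the same way. Cnr1, the CB1 receptor, was at 165 to 301 CPM (median 219), the A1 adenosine receptor Adora1 at 115 to 179 CPM (median 139) and the nociceptin receptor Oprl1 at 50.1 to 75.6 CPM (median 65.4). These were the 3 of 10 genes that reached 1 CPM in every mouse (5 without mouse 5), while 47.1% of protein-coding genes reached it in every mouse. Adora1 was above Adora2a in every mouse (mean log2 ratio 8.39 ± 2.28), but mice 1 and 5 had no Adora2a count. The mean was 7.16 with 3 added to each count, 7.83 without mouse 5 and 8.98 without mouse 2. Oprd1, the delta opioid receptor, was at 1.3, 6.78, 15.2, 15.1, 0.573 and 5.25 CPM, and Cnr2 and Adora2b were below 1 CPM throughout. Of 27 peptide receptors, 12 (44.4%) reached 1 CPM in every mouse, near the 47.1% of protein-coding genes. Cckbr, the cholecystokinin B receptor, was at 153 to 254 CPM (median 170.1), the somatostatin receptor Sstr2 at 53.04 to 103 CPM (median 87.2), the NPY receptor Npy1r at 32.1 to 59.2 CPM (median 55.6) and the PACAP receptor Adcyap1r1 at 33.8 to 118 CPM (median 86.1). The peptide receptors below 1 CPM in every mouse were Cckar, Tacr2, Tacr3, Vipr2, Avpr1a, Galr1, Galr2 and Galr3.

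Cck was the leading peptide precursor. Its product, cholecystokinin, is made by many cortical pyramidal neurons as well as by a class of interneuron. Cck was at 2851, 1151, 1709, 1692, 1199.9 and 1301 CPM in mice 1 to 6 and made up 42.4 to 90.1% (median 69.8%) of the peptide list per kilobase. Cck was above Sst per kilobase in every mouse, but by a log2 ratio that ranged from 0.40 to 12.76 (mean log2 ratio 5.55 ± 5.64), being smallest in mice 1, 2 and 6. Its mean was 4.11 without mouse 5, 4.22 without mouse 4 and 6.40 to 6.58 without mouse 1, 2 or 6. With 3 added to each count the mean was 5.19, so its size depends on the number added. Penk, which encodes the enkephalins, was at 61.8 to 234 CPM (median 116). Of the 24 precursors, 7 reached 1 CPM in every mouse, 14 in some and Gal, Avp and Pmch in none.

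Immediate early genes, which neurons transcribe within minutes of strong activity, were high in all libraries. Of the 18 genes, 17 reached 1 CPM in every mouse, with a median mean level of 66.8 CPM against 0.112 CPM over all genes and 4.73 CPM over protein-coding genes. The transcription factor Egr1 was at 621, 573, 1423, 1374, 913 and 513 CPM, Arc, whose product removes AMPA receptors from synapses, at 159.9, 189, 431, 299, 583 and 105 CPM, Egr4 at 151, 95.8, 181, 246, 229 and 110.5 CPM and Junb at 138, 119.9, 174, 168, 323 and 129 CPM. Mice 3, 4 and 5 were the highest for each of these genes, and mice 1, 2 and 6 the lowest, as their summed levels of 1693, 1607, 3211, 2933, 2778 and 1621 CPM over the whole list also were. Nr4a1, an orphan nuclear receptor named after its values were seen, was at 117, 123, 219.6, 175, 208 and 78.9 CPM, with the same 3 mice highest. The 3 mice lowest here were those with the highest endothelial sums, and whether the one bears on the other was not tested. The sorted cells had been dissociated before lysis and no intact tissue is among these libraries, so the part of dissociation was not tested.

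Promoters of the immediate early genes are shown because these genes were abundant in every library. The cyclic AMP response element TGACGTCA is bound by CREB, which neuronal activity activates, and its half-site is TGACG. Both were searched on both strands in windows of 300 bases, from 250 before to 50 after the start, taken from RefSeq on GRCm38.p6. The half-site on the other strand reads CGTCA, and a full element counts as a half-site on each strand. Of the 18 genes, 14 matched an entry by symbol, 11 of these held at least 1 half-site in a window, and Dusp1 and Btg2 held a full element. Over all 32851 windows, 20.8% held a half-site and 1.79% a full element. Egr1, Egr3, Arc and Ier2 were not among the entries. The 2 leading genes with an entry, Egr4 (chr6:85513540-85513839, minus strand) and Junb (chr8:84978699-84978998, minus strand), Nr4a1 as the one with the most half-sites together with Nr4a3 (chr15:101266596-101266895, plus strand), and Crhr1 for comparison (chr11:104132531-104132830, plus strand) read as follows on the strand of the gene, 5′ to 3′, with half-sites in capitals.
Egr4: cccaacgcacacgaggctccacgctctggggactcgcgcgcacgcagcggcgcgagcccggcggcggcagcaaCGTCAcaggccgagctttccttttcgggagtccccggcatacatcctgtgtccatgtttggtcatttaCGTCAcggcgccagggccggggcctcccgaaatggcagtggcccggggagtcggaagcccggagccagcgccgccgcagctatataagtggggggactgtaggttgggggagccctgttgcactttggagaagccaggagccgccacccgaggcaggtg
Junb: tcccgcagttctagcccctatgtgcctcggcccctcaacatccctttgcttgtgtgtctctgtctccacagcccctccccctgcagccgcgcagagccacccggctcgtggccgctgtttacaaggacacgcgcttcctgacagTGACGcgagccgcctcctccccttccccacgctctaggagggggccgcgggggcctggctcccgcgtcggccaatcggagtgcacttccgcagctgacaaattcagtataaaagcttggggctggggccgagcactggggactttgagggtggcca
Nr4a1: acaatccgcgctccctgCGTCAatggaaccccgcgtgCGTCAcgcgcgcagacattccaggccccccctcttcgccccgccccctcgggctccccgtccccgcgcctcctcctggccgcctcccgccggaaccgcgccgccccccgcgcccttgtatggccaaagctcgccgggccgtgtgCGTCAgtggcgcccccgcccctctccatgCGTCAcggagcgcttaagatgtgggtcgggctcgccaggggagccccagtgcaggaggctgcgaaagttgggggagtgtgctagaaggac
Crhr1: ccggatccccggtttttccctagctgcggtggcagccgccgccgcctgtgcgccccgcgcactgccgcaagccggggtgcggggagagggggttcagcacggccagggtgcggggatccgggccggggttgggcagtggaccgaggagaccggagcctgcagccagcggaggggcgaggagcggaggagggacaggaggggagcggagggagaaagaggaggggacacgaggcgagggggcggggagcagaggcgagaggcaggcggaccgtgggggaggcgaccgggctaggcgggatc
The Egr4 window thus held 2 half-sites, that of Junb 1, that of Nr4a1 4 and that of Crhr1 none. The Crhr1 window was set on the RefSeq start and ends before the start of the Crhr1 coordinates given earlier. At least 4 half-sites were found in 0.231% of all windows. A match of letters is a description and does not show that a factor binds there.

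Noncoding and mitochondrial transcripts completed the lists. Malat1, a nuclear RNA, was at 524 to 1157 CPM (median 823) and Miat at 87.1 to 169 CPM (median 125), while Xist, transcribed from the inactive X of female cells, did not exceed 1.23 CPM in any mouse. Mitochondrially encoded mRNAs summed to 7959, 4728, 4909.8, 4859.7, 1650.0 and 7032 CPM, lowest in mouse 5. Among them mt-Cytb was at 436 to 2468 CPM (median 1289.8), mt-Nd1 at 518 to 1345 CPM (median 903), mt-Co1 at 236 to 1382 CPM (median 879) and mt-Nd2 at 191 to 884 CPM (median 631), whereas mt-Nd4l, mt-Co2, mt-Co3, mt-Atp6 and mt-Atp8 were below 1 CPM in every mouse. These mRNAs come from the same polycistronic transcripts, and reads that map to several places, 8.19 to 12.6% of the tallied reads, were not counted for any gene. The part of that rule in the 5 low mRNAs was not tested.

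Across all 42 lists, 236 of the 434 genes (54.4%) reached 1 CPM in every mouse (269 without mouse 5), 147 in some and 51 (11.8%) in none. Of all genes, 20.6% reached it in every mouse and 59.7% in none, and of protein-coding genes 47.1% reached it in every mouse. Their median mean level was 13.7 CPM. These lists were written for brain cells, so a share above that of all genes or of protein-coding genes is no result about the CRF1+ cells.

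The spread between mice was then described gene by gene. Over the 9792 genes with a mean of 10 CPM or more, the coefficient of variation (CV) of CPM over the 6 mice had a median of 29.7% and quartiles of 21.3 and 40.6%. It exceeded 100% in 73 genes (0.746%), and 25 genes exceeded it when mouse 5 was left out. Among the 2386 genes with a mean of at least 100 CPM, the smallest CVs were those of Zc3h14 (2.12%), which encodes a poly(A)-binding protein, Zfp207 (2.27%), the chaperonin subunit Cct6a (3.30%), Tcf25 (3.86%) and Klhl22 (4.04%). Tcf25 was at 815, 848, 874, 834, 796 and 791 CPM. The largest were those of Sst (117%), Apoe (112%), Actb (109%), Scn2b (106%), Ly6c1 (93.2%), Inpp4a (93.0%), Dusp3 (89.97%), Klhl3 (86.5%), Spon1 (79.9%) and CT010467.1 (78.3%). In this list, Sst, Apoe, Ly6c1 and Spon1 were high in mice 2 and 6, and Sst, Apoe and Ly6c1 also in mouse 1. Actb, the cytoskeletal beta-actin often used as a reference gene, was at 544, 413, 539, 428, 2836 and 527 CPM, Inpp4a at 157, 189, 214, 192, 907 and 221 CPM, Dusp3 at 102, 94.7, 111, 125, 488 and 113 CPM and Klhl3 at 57.7, 92.7, 78.8, 86.2, 333 and 76.96 CPM, so that for these 4 genes and Scn2b mouse 5 alone was high and the others lay close together. The 5 genes furthest below the other mice in mouse 5, at a mean of at least 100 CPM, were Gm23935, Sst, Gm10800, CT010467.1 and Gm15564.

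By list, the median CV of members with a mean of 10 CPM or more was 15.1% for general neuronal markers, 29.2% for glutamatergic and 58.1% for GABAergic markers, 105% for endothelial markers, 22.8% for AMPA receptor subunits and 22.3% for GABA-A receptor subunits. It was 34.2% for NMDA receptor subunits and 40.9% for metabotropic glutamate receptors, so receptor lists lay on both sides of the median of 29.7% over all such genes. The lists named here held 4 to 11 such members. Over genes with a mean of at least 100 CPM the median CV was lower, at 22.2%. Whether lists differed in spread beyond their difference in level was not tested. The biological coefficient of variation, which edgeR estimates after setting aside counting noise, was 39.2% in common over 11378 genes and 36.8% when mouse 5 was left out.

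Of the 30 gene pairs tested, 25 are reported here, and 21 of these had the same direction in all 6 mice and passed the adjusted threshold of 0.05, of which 18 had the first gene of the pair higher and 3 the second. The 4 that did not pass were Gria2 and Gria1, Grin2b and Grin2a, Cacna1c and Cacna1d, and Cux2 and Bcl11b. Since these 21 pairs share the smallest p that 6 mice allow, the p-values do not rank them. The pairs were chosen with earlier results of these data known, so the number that passed is no independent evidence. For the pairs with Crhr1, the sort by a Crhr1 reporter also favored the direction.

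**Figure D5:**
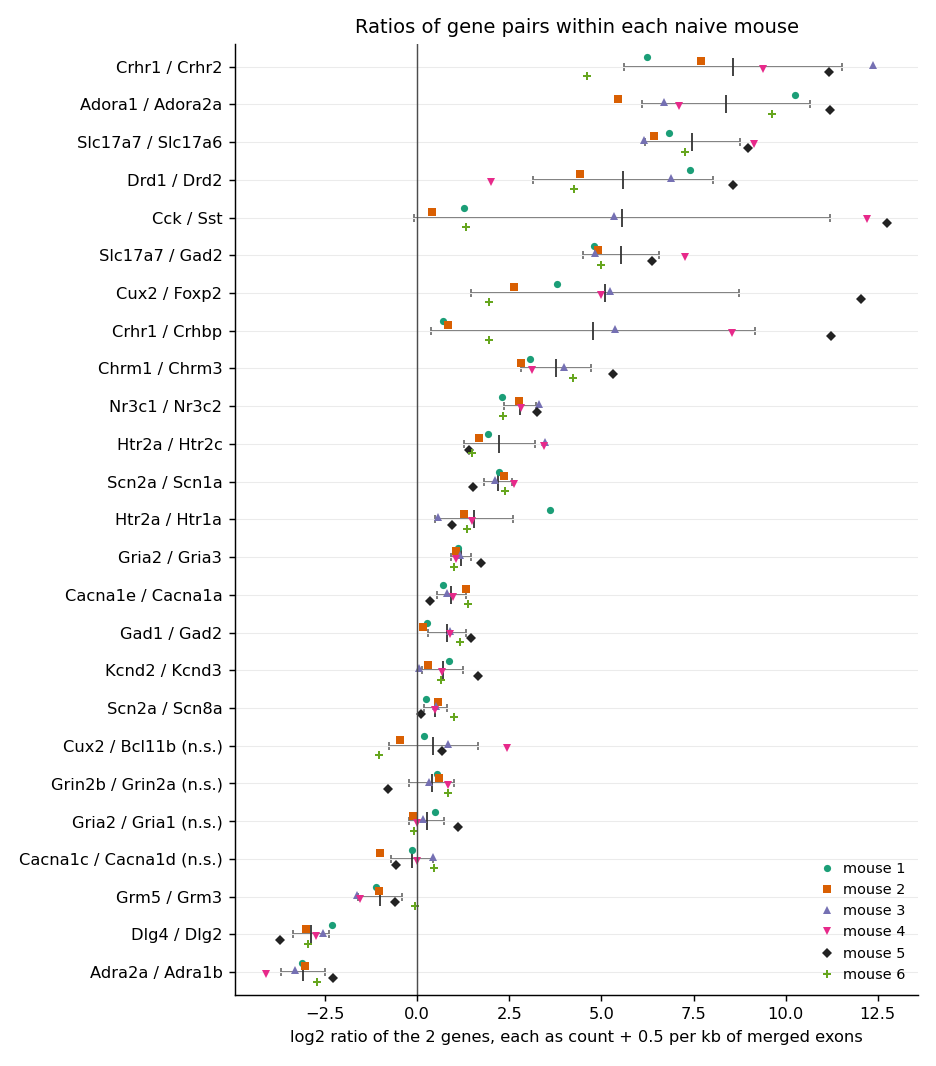
Log2 ratio of the 2 genes of each of 25 pairs in each of the 6 naïve mice, computed from count + 0.5 per kilobase of merged exons, with 1 symbol per mouse, a vertical tick at the mean and a bar of 1 SD to each side. Pairs marked n.s. did not pass the adjusted threshold, the ratio of Gria2 to Gria3 is the least spread, and those of Cck to Sst, Crhr1 to Crhbp and Cux2 to Foxp2 are spread over more than 10 log2 units.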

How the data were processed

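Gene counts of CRF1+ cells sorted from the mPFC of 6 naïve mice were used, with 1 library per mouse, and the 5 ethanol libraries were not. The authors trimmed reads with cutadapt, aligned them with STAR to GRCm38 and used HTSeq to make counts per Ensembl gene, deposited as whole numbers without normalization. Whether HTSeq used strand is not given in the sources used here, and the kit does not mark strand, so reads of overlapping antisense genes cannot be told apart. Genes held 56.6 to 81.1% of the tallied reads. Rows that name no gene (reads on no counted feature, in several genes or at several places) were left out of totals and tests. Libraries held 9970161 to 17855514 counts.

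Counts were divided by the library total (CPM) and by merged exon length of GENCODE M21 (RPKM), and 53360 of 53465 gene IDs were found there. Genes at 1 CPM in every mouse were counted per list. Gene pairs were compared as log2 ratios of count + 0.5 per kilobase with an exact sign-flip permutation test. Spread was given as the CV over mice and by edgeR 4.0.16. R 4.3.3, DESeq2 1.42.0 (size factors as an alternative), Python 3.11.15 and SciPy 1.17.1 were used, and the test and the dispersion fit were checked on simulated data. Agreement within sampling noise was found for none of the 15 pairs of libraries. Alternatives were other library sizes, other gene lengths, other detection thresholds and leaving out each mouse.

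The mice, gene lists and pairs were chosen with earlier results of these data known. Named genes were the 20 highest by mean CPM, the 10 highest per kilobase, the 4 highest per kilobase of each list, members below 1 CPM in every mouse, the genes of the pairs, the 10 highest and 5 lowest by CV at a mean of at least 100 CPM, and the 5 furthest above and below the others in the library that stood apart. Promoter sequences are from RefSeq. Some genes and pairs that these rules name are not reported here, and those pairs stayed in the adjustment of p-values. Other genes named were chosen after their values were seen.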

Additional observations from a re-analysis of the deposited data

Results flagged for a closer look

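Of 267 sets of 6 values examined (named genes, list sums and pair ratios), 34 held 1 mouse whose gap to the nearest other exceeded the 95% critical value of Dixon's test. Chance flags about 1 set in 20 where values are normally distributed, and sets that share genes are not independent. Some genes were named for a high CV or for standing apart in mouse 5. Their flags were favored by that choice, so the counts of flags are a description only. The mouse that stood apart was mouse 5 in 26 sets, mouse 1 in 4 and mouse 6 in 4.

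Several genes of synaptic receptors and scaffolds were lowest in mouse 5, whereas others, given in the next paragraph, were highest there. Grin2b was at 103 CPM there against 294 to 378 CPM in the other mice, and Grin2b over Grin2a fell to a log2 ratio of -0.79 against 0.33 to 0.84. Gria3 was at 154 CPM against 244 to 296 CPM and Gria4 at 59.1 CPM against 111 to 135 CPM, which took Gria2 over Gria3 to a log2 ratio of 1.74 against 1.006 to 1.17. Grik5 was at 60.2 CPM against 86.7 to 103 CPM, Gabra2 at 73.2 CPM against 125 to 153 CPM, and the sodium channel gene Scn2a at 129 CPM against 278 to 343 CPM. The scaffold genes Dlg4 and Dlg2 were at 2.42 CPM against 13.5 to 17.7 CPM and at 39.4 CPM against 107 to 139 CPM. Summed levels were likewise lowest in mouse 5 for GABA-A receptor subunits (1097 CPM against 1609 to 1754 CPM), postsynaptic scaffolds (619 CPM against 1057 to 1266 CPM) and calcium channel alpha1 subunits (285 CPM against 441 to 504 CPM).

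Other genes were highest in mouse 5. Actb was at 2836 CPM against 413 to 544 CPM, Scn2b at 879 CPM against 125 to 201 CPM, Inpp4a at 907 CPM against 157 to 221 CPM, Dusp3 at 488 CPM against 94.7 to 125 CPM and Klhl3 at 333 CPM against 57.7 to 92.7 CPM. Hspa8, a constitutive heat shock chaperone, was at 2737 CPM against 1586 to 1774 CPM and Junb at 323 CPM against 119.9 to 174 CPM. Neurod6 was at 517 CPM against 266 to 352 CPM, Gabbr2 at 422 CPM against 132 to 194 CPM and Cckbr at 254 CPM against 153 to 173 CPM. S100b, an astrocyte marker, was at 43.3 CPM against 6.71 to 19.1 CPM, and Htr3a at 19.1 CPM against 0 to 6.33 CPM. Cux2 over Foxp2 had a log2 ratio of 12.05 there against 1.95 to 5.22, with no Foxp2 count in mouse 5.

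Mouse 1 had the highest Cck (2851 CPM against 1151 to 1709 CPM) and with it the highest sum of peptide precursors (4168 CPM against 1629 to 2105 CPM). Its log2 ratio of Htr2a over Htr1a was 3.60 against 0.57 to 1.48, and the microglia marker Trem2 was at 6.12 CPM against 0.0934 to 2.02 CPM. Mouse 6 had the highest Crhr2 (6.84 CPM against 0 to 1.81 CPM), Hbb-bt (7.99 CPM against 0 to 1.62 CPM), Kcnj8 (25.0 CPM against 0 to 2.13 CPM) and Lum (6.77 CPM against 0.0637 to 0.728 CPM), of which the last 3 mark blood, mural cells and fibroblasts. Hbb-bt has a near-identical copy, so its level is uncertain.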

How the results depend on the processing

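Of 852 values recomputed under alternatives, 24 changed: 5 ratios reversed, 3 lost and 2 gained their call, and 14 counts or CVs moved beyond their limits. With the longest transcript as length, Gria2 over Gria1 passed (mean log2 ratio 0.72), Grm5 over Grm3 (-0.66) and Kcnd2 over Kcnd3 (0.27) no longer did, and Cacna1c over Cacna1d turned to 0.16. With no length correction, Gria2 over Gria1 passed (1.62), Scn2a over Scn8a did not (0.18), and the ratios of Grm5 over Grm3 (0.74), Kcnd2 over Kcnd3 (-0.21) and Cacna1c over Cacna1d (0.61) reversed. Thus 19 and 18 of the 21 calls kept their direction and passed. All 21 did with 3 added to each count and with exon bases that no other gene shares as length (chosen after seeing the data). The longest transcript also moved Gad1 over Gad2 to 1.86 and Htr2a over Htr2c to 1.30. With 5 mice the smallest exact permutation p is 0.0625, so no call was made without 1 mouse and only values were compared, and for calls that all 6 mice share a direction is kept by construction. Without 1 mouse, Grin2b over Grin2a ranged from 0.30 to 0.63 and Cacna1c over Cacna1d from -0.26 to 0.035. Genes with a CV above 100% numbered 1777 and the median CV was 40.1% at a mean of 1 CPM or more, and without 1 mouse the number ranged from 25 to 96. TMM and DESeq2 library sizes moved the mean CPM of 194 named genes by -5.91 to 3.77% and -2.75 to 3.52%. The counts of 11 list contents moved by over 1.5 times, 7 of them without mouse 5. No paired analysis was possible because the naïve mice alone were analysed. Depth limits levels below 3 counts.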
